A study of Rattus norvegicus with 20 samples.

Results

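The nuclear receptors are transcription factors that bind small lipid-soluble molecules, such as steroids, thyroid hormone, retinoids, bile acids, oxysterols and fatty acids, and then turn target genes on or off. A typical member has a DNA-binding domain that recognises a short hexamer of bases and a ligand-binding domain that exchanges corepressors for coactivators, and many members bind DNA as heterodimers with a retinoid X receptor. In the liver they govern lipid, bile acid, sugar and xenobiotic metabolism, and some, the orphan receptors, act without a known physiological ligand. The family was taken as a list of 45 rat gene symbols, fixed by name and not by any measured value. Of these, 42 were measured, out of 14217 genes with a symbol in the whole data set, and Hnf4g, Nr2e3 and Nr6a1 were not used here. Each receptor was represented by its brightest probe set, the one with the highest mean over all 20 arrays.

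The livers came from 20 male rats of the Sprague-Dawley strain, 5 per diet, and each was hybridised to its own Affymetrix array. The TF group ate tofu and fish oil, the TS group tofu and soybean oil, the CF group casein and fish oil and the CS group casein and soybean oil. The diets were fed for 21 days to rats that had arrived at 4 weeks of age, every diet held 200 g/kg of protein and 150 g/kg of fat, and the fish oil diets held 50 g/kg of fish oil in place of soybean-derived fat. The 2 factors answer separate questions, whether tofu in place of casein (the protein effect) and whether fish oil in place of soybean oil (the oil effect) altered the receptors' mRNA. Tofu was given as a whole food, so the tofu diets differed from the casein diets in more than the protein, and they also contained some casein. The rats of each group with the highest and the lowest food consumption were not put on arrays, and food was withdrawn shortly before the livers were taken. Single rats carry the group's letters and their label's number (TF-3, for example). Levels are given as z scores, which are logarithmic and standardised within each array, and a difference of 0.2 in z is 1.41-fold.

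The 42 receptors covered the range from among the stronger signals of the liver to below the middle of the array (see the plot of levels by diet). A receptor was taken as above the array median where its mean z over all arrays exceeded 0.022, the highest median of any array, and as near background otherwise, since no detection call accompanies the values. By this measure 27 receptors (64.3%) were above and 15 (35.7%) near background, against 63.5% and 36.5% of all genes. Levels of different genes come from different probes, so their order is a description. A dimmer probe set of the same gene can lie near background, as for Rxrg (-0.215), Nr3c1 (-0.302) and Ppard (-0.482). The dimmer ones of Hnf4a (0.484 and 0.474) were above the array median.

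**Figure D1:**
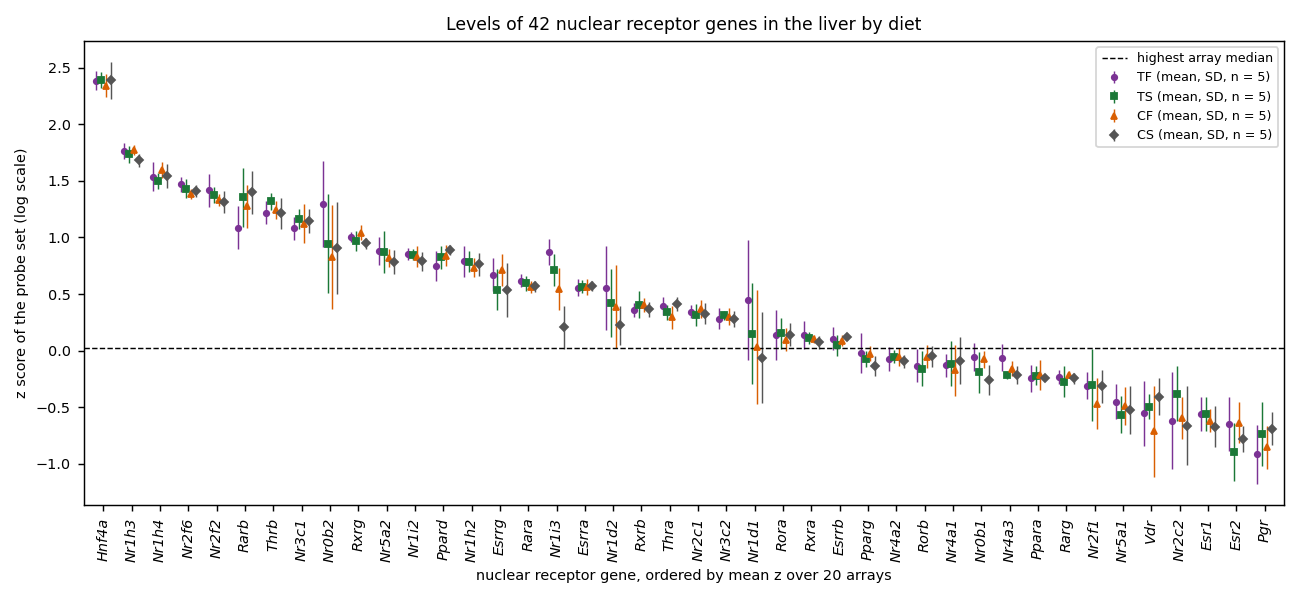
Mean z score and SD of 5 rats per group (y axis, log scale) for each of the 42 receptor genes (x axis, ordered by the mean over 20 arrays), in the TF, TS, CF and CS groups, with the highest array median of 0.022 as a dashed line. The 4 groups lie close together for most receptors, and Nr1i3 is the receptor whose CS mean (0.206) lies farthest below its TF mean (0.870).

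Hnf4a, which keeps hepatocyte genes active, had the highest mean z (2.38), followed by the oxysterol receptor Nr1h3 (LXR alpha, 1.74) and the bile acid receptor Nr1h4 (FXR, 1.54). These first 3 levels differed from each other, and from Nr2f6 (1.42) below them, by more than the larger SD over rats of each neighbouring pair. Further down, neighbours within the run of Nr2f6, Nr2f2 (1.36), Rarb (1.28) and the thyroid hormone receptor Thrb (1.25) differed by less than the larger SD. The same was true of each pair of neighbours in the run from Nr5a2 (0.839) to Esrrb (0.0914). The glucocorticoid receptor Nr3c1 stood at 1.13, the pregnane X receptor Nr1i2 at 0.830 and the constitutive androstane receptor Nr1i3 at 0.584. The probe sets near background were those of Pparg, Ppara, Nr4a1, Nr4a2, Nr4a3, Rorb, Nr0b1, Rarg, Nr2f1, Nr5a1, Vdr, Nr2c2, Esr1, Esr2 and Pgr, with means between -0.0642 and -0.799. Ppara, the fatty acid receptor known to be abundant in liver, had 1 probe set with a mean z of -0.229, and it was above its own array's median on 0 of 20 arrays. For such receptors the values give little measure of a change in mRNA.

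The upstream sequence of 3 receptors is shown because the results turn on them: Nr1i3, the receptor that passed the test, and Nr1d1 and Nr1d2, the closest relation between rats among the pairs examined. They are RefSeq windows of the GRCr8 build, from 250 bases before the annotated start to 50 bases after it, written 5′ to 3′. For Nr1d1 the first of its windows is printed. Nr1i3 lies at chr13:86165170-86165469 on the plus strand, Nr1d1 at chr10:84229405-84229704 on the minus strand and Nr1d2 at chr15:9954784-9955083 on the plus strand. Capitals mark the hexamers searched, AGGTCA, the core of many receptor binding elements, and CACGTG, the E-box that clock activators bind, on both strands.
Nr1i3: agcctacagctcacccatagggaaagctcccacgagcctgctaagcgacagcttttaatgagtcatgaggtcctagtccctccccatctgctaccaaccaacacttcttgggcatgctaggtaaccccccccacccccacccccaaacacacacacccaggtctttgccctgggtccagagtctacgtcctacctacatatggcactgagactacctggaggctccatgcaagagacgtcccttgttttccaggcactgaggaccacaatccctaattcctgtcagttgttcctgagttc
Nr1d1: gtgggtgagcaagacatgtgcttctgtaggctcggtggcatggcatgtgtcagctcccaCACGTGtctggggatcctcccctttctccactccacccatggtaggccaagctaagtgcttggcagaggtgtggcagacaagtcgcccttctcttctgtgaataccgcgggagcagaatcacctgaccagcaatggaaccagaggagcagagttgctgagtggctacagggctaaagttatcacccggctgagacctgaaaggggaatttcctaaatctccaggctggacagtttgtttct
Nr1d2: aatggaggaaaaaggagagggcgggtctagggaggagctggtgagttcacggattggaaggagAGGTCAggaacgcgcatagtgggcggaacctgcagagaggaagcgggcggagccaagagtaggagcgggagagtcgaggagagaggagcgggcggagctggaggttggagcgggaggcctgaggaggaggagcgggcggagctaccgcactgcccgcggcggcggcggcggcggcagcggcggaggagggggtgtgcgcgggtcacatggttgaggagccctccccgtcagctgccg
The Nr1i3 window held neither hexamer, the printed Nr1d1 window held CACGTG at base 60 and Nr1d2 held AGGTCA at base 64. The other Nr1d1 window, at chr10:84231763-84232062, held neither. RefSeq windows were matched for 37 of the 42 receptors, with 46 windows in all, and Nr1h4, Nr2f2, Ppard, Nr3c2 and Nr4a3 were not matched. AGGTCA was in 5 of the 46 receptor windows (10.9%; Esrrg, Nr0b1, Nr1d2, Nr5a2 and Rarg), against 16.2% of 33469 windows of all genes. CACGTG was in 4 of the 46 (8.70%; Esr2, Nr0b2, Nr1d1 and Nr5a1), against 6.42% of all. A hexamer in a window is a match of letters and not a measured binding site.

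Among the xenobiotic sensors, which switch on drug-metabolising enzymes, Nr1i3 (CAR, Entrez gene 65035) was higher on tofu. In TF livers its z scores were 0.776, 1.06, 0.809, 0.864 and 0.836, and in TS livers 0.842, 0.748, 0.806, 0.479 and 0.698. In CF livers they were 0.599, 0.519, 0.712, 0.239 and 0.651, and in CS livers 0.370, -0.0483, 0.353, 0.288 and 0.0664. Every TF and every TS rat was above every CS rat, every TF rat was above every CF rat, and the TS and CF groups overlapped. The group means were 0.870 ± 0.113 in TF, 0.715 ± 0.143 in TS, 0.544 ± 0.184 in CF and 0.206 ± 0.187 in CS (SD, n = 5 each). The protein effect was 0.417 in z, 2.06-fold (SE 0.0684, 95% interval 0.274 to 0.561, limma adjusted p = 0.00551). It was 0.392 with the rat number as a replicate block, which ended the call (limma adjusted p = 0.0638). TF against CS, which carries both dietary changes, differed by 0.664, 3.16-fold (SE 0.0967, limma adjusted p = 0.00198).

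**Figure D2:**
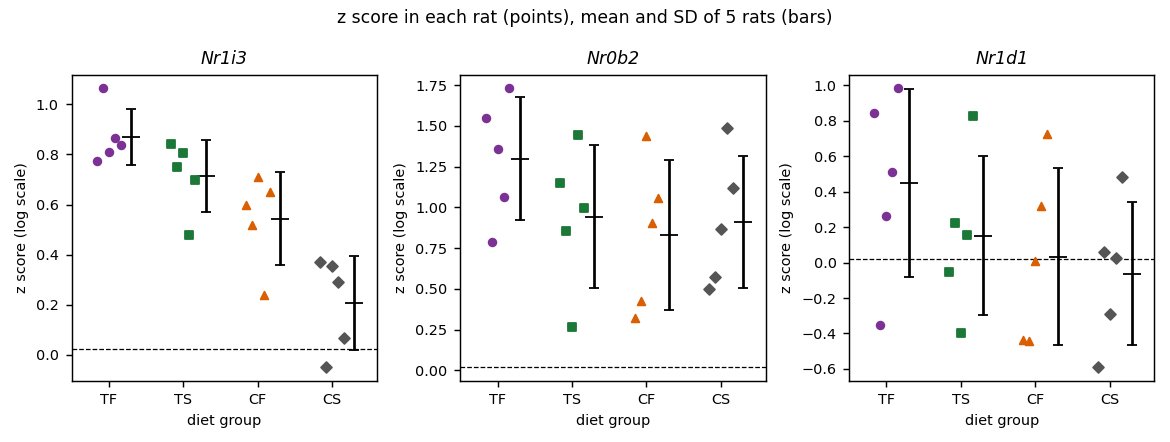
z score (y axes, log scale) of Nr1i3, Nr0b2 and Nr1d1 in each rat (points) of the TF, TS, CF and CS groups (x axes), with the mean and SD of 5 rats beside the points and the highest array median as a dashed line. Nr1i3 separates all 5 TF rats from all 5 CS rats, while the groups overlap for Nr0b2 and Nr1d1.

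The other comparisons of Nr1i3 did not pass the threshold of 0.05. TS exceeded CS by 0.509 in z (SE 0.0967, limma adjusted p = 0.0610) and CF exceeded CS by 0.338 (adjusted p = 0.761), and these 2 comparisons share the CS rats with that of TF. TF exceeded CF by 0.326 (limma adjusted p = 0.406) and TF exceeded TS by 0.155 (adjusted p = 0.939). The oil effect was 0.247 (95% interval 0.103 to 0.390, limma adjusted p = 0.349), so a difference of this size did not survive adjustment over all probe sets. The interaction, the oil difference on tofu minus that on casein, was -0.183 (95% interval -0.469 to 0.104, limma adjusted p = 1.0). Nr1i3 has a single probe set on the array, so no second measure of it was at hand.

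Nr1i3 was the only receptor that passed in the protein effect, 1 of 42, where 0.557% of all 31039 probe sets and 0.921% of the brightest probe sets of 14217 genes passed. It was also the only one of 42 in TF against CS, where 0.457% of probe sets passed (0.753% of the brightest). A count of 1 among 42 (2.38%) is the smallest above 0, so it describes Nr1i3 and not the family. For the oil effect 0 of 42 receptors passed, against 0.193% of probe sets. In limma 6 receptors (14.3%) had an unadjusted p under 0.05, against 5.55% of probe sets, and 0 passed in a model without moderation of the variance. These 6 were Nr1i3, Rarb, Rxrg and, near background, Nr4a3, Nr0b1 and Esr2. The shares of probe sets with an unadjusted p under 0.05, here and below, are over all probe sets. Each receptor is its gene's brightest probe set, so the shares are not like for like. For the interaction 0 of 42 passed, with 1 (2.38%) at an unadjusted p under 0.05 against 3.43% of probe sets, and 0% of all probe sets passed. In the simple comparisons limma passed 0 of 42 receptors each time. For TS minus CS (0.0709% of probe sets passed) 1 receptor had an unadjusted p under 0.05, against 7.15% of probe sets, and for CF minus CS (0.0451% passed) 4 had (9.52%), against 3.52%. For TF minus CF (0.0677% passed) it was 1 receptor, against 6.90% of probe sets, and for TF minus TS (0.0677% passed) 2 (4.76%), against 5.83%. A fit without moderation of the variance likewise passed 0 in these. A selection modelled on the study's methods, an unadjusted F test p under 0.01 with a difference from CS above 0.2, took 1 of 42 receptors, again Nr1i3, and 1.71% of all probe sets. The study's own selection tested single Perfect Match cells and took a far larger share of the genes. The count given here is therefore not the number of receptors that the study selected. Nr1i3 was likewise the 1 receptor of 42 (2.38%) whose values did not overlap between TF and CS (2.94% of genes), TS and CS (1.68%) or TF and CF (1.97%). Between all tofu and all casein rats 0 of 42 receptors were free of overlap (0.148% of genes), since TS-5 at 0.479 lay below 4 of the 5 CF rats for Nr1i3. The count was also 0 for fish oil against soybean oil (0.134% of genes), CF and CS (0.788%) and TF and TS (1.13%).

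The other xenobiotic sensor, Nr1i2 (PXR), had z scores of 0.804 to 0.937 in TF, 0.797 to 0.917 in TS, 0.689 to 0.908 in CF and 0.676 to 0.874 in CS livers. The groups overlapped throughout, and its protein effect of 0.0410 had a 95% interval of -0.0309 to 0.113. Of 11 measured genes that PXR and CAR are known to control, 1 passed in the protein effect, where 0.921% of all genes (brightest probe sets) passed. This gene was Cyp3a23-3a1, a cytochrome P450 of drug and steroid metabolism. It averaged 2.69 ± 0.04 in TF, 2.56 ± 0.20 in TS, 2.42 ± 0.14 in CF and 2.35 ± 0.03 in CS (SD, n = 5 each), and it rose on tofu by 0.242, 1.52-fold (SE 0.0541, limma adjusted p = 0.0492). In TF against CS, where 0.753% of all genes passed, the 1 gene of 11 that passed was Cyp3a2. It was higher by 0.360, 1.87-fold (SE 0.0745, limma adjusted p = 0.0338). The Cyp3a genes resemble each other closely, and signal shared between their probe sets cannot be told apart here. The list's median difference was 0.0629 on tofu, against 0.0112 over all genes. For the oil effect 0 of the 11 passed, where 0.302% of all genes passed.

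Across all 42 receptors the differences were small (see the plot of both effects with their intervals). On tofu 27 receptors had a positive and 15 a negative difference (64.3% positive, against 58.0% of all genes), and the median was 0.0219. On fish oil 26 were positive and 16 negative (61.9%, against 48.2% of all genes), and the median was 0.0118 against -0.0018. The protein difference lay within 0.2 in 39 of 42 receptors (92.9%, against 97.4% of all genes), the exceptions being Nr1i3, Nr1d1 and Nr0b2. Among the 27 receptors above the array median, the whole 95% interval of the protein effect lay within 0.2 for 22, and that of the oil effect for 21. A change of 1.41-fold was thus outside the interval of the probe set used for each of those receptors. Other probe sets of a gene are not bound by it, and a dimmer one of Hnf4a differed by 0.189 on tofu (SE 0.0468). The intervals of Rarb, Nr0b2, Nr1i3, Nr1d1 and Nr1d2 reached beyond 0.2 in both effects, and that of Esrrg in the oil effect. The lowest adjusted p of any receptor other than Nr1i3 was 0.585 in the protein effect, 0.645 in the oil effect and 0.292 in TF against CS, all from limma.

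**Figure D3:**
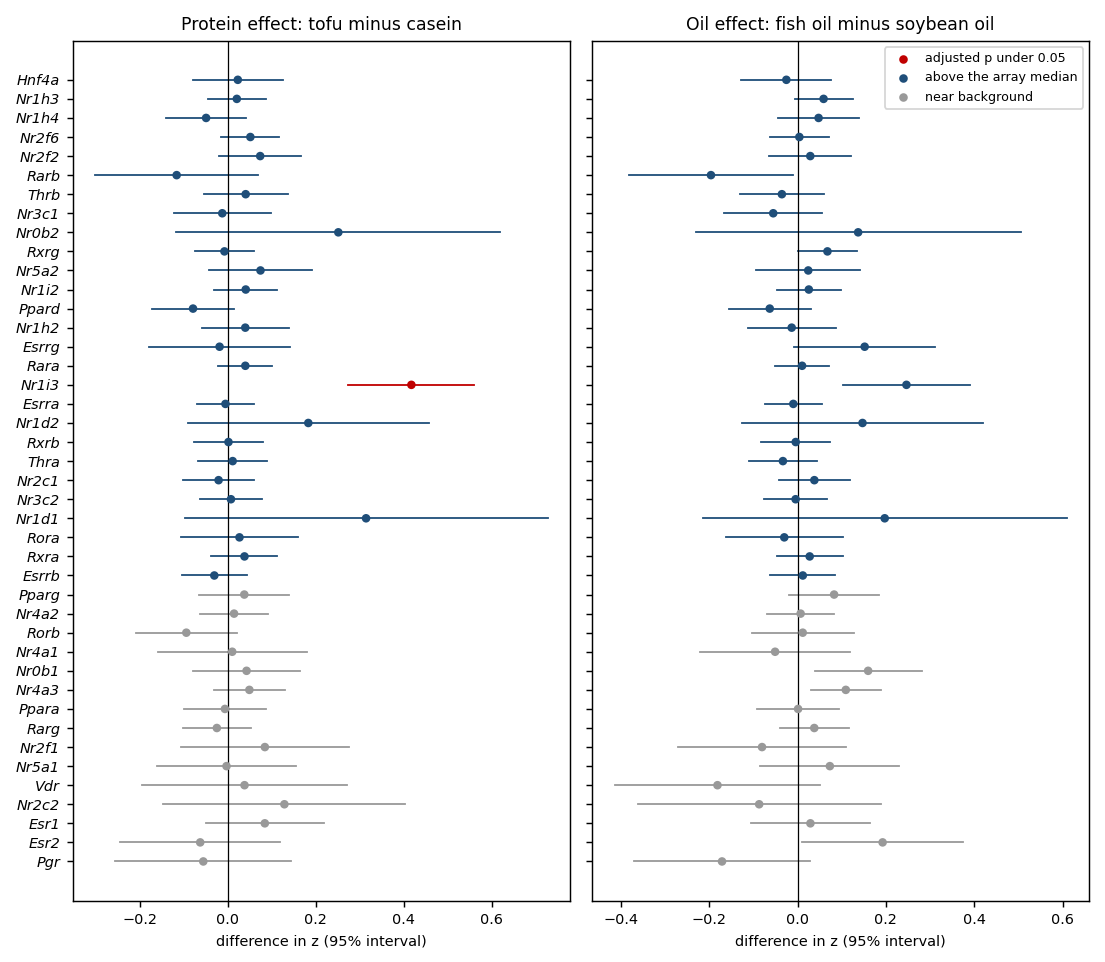
Protein effect (left, tofu minus casein) and oil effect (right, fish oil minus soybean oil) of each of the 42 receptors, as the difference in z (x axes, points) with its 95% interval (lines), in order of mean level down the y axis. Red marks an adjusted p under 0.05, which Nr1i3 alone reached and only for protein (0.417), blue the other receptors above the array median and grey those near background.

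The lipid and bile acid sensors, which include the peroxisome proliferator-activated receptors (PPARs), the liver X receptors (LXRs) and FXR, gave protein differences between -0.0788 (Ppard) and 0.0400 (Nr1h2), and 0 of 6 passed. For the 4 above the array median, Nr1h3, Nr1h4, Ppard and Nr1h2, the 95% intervals of both effects lay within 0.2, while Ppara and Pparg were near background. Nr1h3 (LXR alpha), a sensor of oxysterols, had z scores of 1.68, 1.84, 1.79, 1.80 and 1.70 in TF, 1.82, 1.70, 1.77, 1.76 and 1.62 in TS, 1.71, 1.80, 1.81, 1.75 and 1.80 in CF and 1.65, 1.61, 1.67, 1.72 and 1.76 in CS livers. The groups overlapped, with the CS values mostly at the lower end, and the oil effect was 0.0589 (95% interval -0.0069 to 0.125, limma adjusted p = 0.937). Ppard, a fatty acid receptor found in most tissues, had 0.725, 0.770, 0.817, 0.892 and 0.531 in TF, 0.904, 0.832, 0.785, 0.925 and 0.676 in TS, 0.907, 0.907, 0.884, 0.819 and 0.684 in CF and 0.864, 0.882, 0.925, 0.832 and 0.941 in CS livers. Its lowest value was that of TF-7, the groups overlapped, and TF minus CS was -0.142 (95% interval -0.274 to -0.0099, limma adjusted p = 0.470). Nr1h4 (FXR) had 1.39, 1.52, 1.44, 1.66 and 1.68 in TF, 1.41, 1.46, 1.48, 1.59 and 1.54 in TS, 1.54, 1.68, 1.63, 1.51 and 1.62 in CF and 1.42, 1.55, 1.46, 1.58 and 1.69 in CS livers. No group of FXR values stood apart, and its protein effect was -0.0491 (95% interval -0.141 to 0.0426).

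Some known targets of the PPARs and LXRs passed the test, while the probe sets of the receptors themselves did not. The lists of target genes were drawn up from textbook knowledge with earlier results of these data known. Of 14 measured PPAR target genes, 7 rose on fish oil, where 0.302% of all genes (brightest probe sets) passed, and 0 fell. The 7 were Acot1, Vnn1, Cyp4a1, Ehhadh, Cpt2, Slc25a20 and Creb3l3. Acot1, an acyl-CoA thioesterase, rose by 2.31 in z (SE 0.220, limma adjusted p = 1.54e-05), with 1.5 ± 0.61 in TF, -0.789 ± 0.174 in TS, 1.98 ± 0.76 in CF and -0.349 ± 0.372 in CS (SD, n = 5 each). Vnn1, a pantetheinase, rose by 0.702, 3.38-fold (SE 0.0708, limma adjusted p = 2.56e-05). On tofu, where 0.921% of all genes passed, 0 of the 14 rose and 4 fell, namely Pdk4, Fgf21, Angptl4 and Plin2. Pdk4, which restrains glucose oxidation, fell by 0.550 on tofu (SE 0.0857, limma adjusted p = 0.00422), and Fgf21, a fasting hormone of the liver, fell by 0.501 (SE 0.0825, limma adjusted p = 0.00580). Ppara itself had an oil difference of 0.0012 (95% interval -0.0913 to 0.0936), measured near background, and Pparg and Ppard did not pass in either effect.

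Of 9 LXR target genes, 2 rose and 1 fell on tofu (0.921% of all genes passed), and 0 passed on fish oil (0.302% of all genes). Scd, which introduces double bonds into fatty acids, fell on tofu by 0.696 (SE 0.0872, limma adjusted p = 4.39e-04), and Abcg8, part of the sterol exporter of the bile canaliculus, rose by 0.452 (SE 0.0844, limma adjusted p = 0.0147). Abcg5, the partner of Abcg8, also rose on tofu. The list therefore moved in both directions, and the LXR genes Nr1h3 and Nr1h2 had protein differences of 0.0208 and 0.0400. Of 7 FXR target genes, 0 passed on tofu (0.921% of all genes) or on fish oil (0.302%), the count to expect in a list this short. Their tofu difference was positive in 7 of 7 (58.0% of all genes), with a median of 0.124 against 0.0112 over all genes. The list did not separate genes that FXR induces from genes that it represses, so a shared sign is not a measure of FXR activity. Cyp7a1, the rate-limiting enzyme of bile acid synthesis that FXR represses, averaged 0.583 ± 0.273 in TF, 0.711 ± 0.450 in TS, -0.0290 ± 0.302 in CF and 0.0504 ± 0.473 in CS (SD, n = 5 each), and its protein difference of 0.636 had a limma adjusted p of 0.0900. Cyp8b1, which sets the amount of cholic acid, was the 1 FXR target of 7 that passed in TF against CS, where 0.753% of all genes passed. It was higher in TF by 0.421, 2.07-fold (SE 0.0772, limma adjusted p = 0.0143).

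Nr0b2 (SHP), a receptor without a DNA-binding domain that FXR induces and that represses other receptors, was among the most variable members. Its z scores were 1.55, 0.785, 1.36, 1.06 and 1.73 in TF, 1.15, 0.858, 0.263, 1.44 and 0.998 in TS, 0.320, 0.426, 1.44, 0.903 and 1.06 in CF and 0.498, 0.575, 0.869, 1.49 and 1.12 in CS livers. High and low rats occurred in the TS, CF and CS groups alike, while no TF rat was below 0.785. The protein effect was 0.251 (SE 0.176, 95% interval -0.117 to 0.619, limma adjusted p = 0.678). Without the 4 arrays with a low 5′ actin value, a sign of RNA quality, the difference was 0.0786. Nr0b1, the other member of this kind, was near background, with an oil difference of 0.160 (limma adjusted p = 0.691).

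The retinoid X receptors, the common partners of the sensors, gave 0 of 3 passing in any comparison, and all 3 intervals of both main effects lay within 0.2. Rxrg had z scores of 0.985, 1.07, 1.03, 0.967 and 0.982 in TF, 1.05, 0.953, 0.988, 1.02 and 0.832 in TS, 0.927, 1.05, 1.05, 1.12 and 1.07 in CF and 0.861, 0.982, 0.984, 0.956 and 0.952 in CS livers. The CF values tended to be the higher ones but overlapped with all other groups, and the oil effect was 0.0677 (95% interval 0.0013 to 0.134, limma adjusted p = 0.891). The dimmer probe set of Rxrg, near background with a mean z of -0.215, had an oil difference of -0.0236. Rxra, known as the main retinoid X receptor of hepatocytes, had group means of 0.140 in TF, 0.112 in TS, 0.101 in CF and 0.0744 in CS, just above the array median. Rxrb had 0.362 in TF, 0.407 in TS, 0.401 in CF and 0.365 in CS. The 17 measured coactivators, 9 corepressors and 7 chaperones of steroid receptors, which the receptors depend on, gave 0 passing genes in the protein effect, the oil effect and the interaction. Over all genes 0.921% passed in the protein effect and 0.302% in the oil effect, and 0% of probe sets in the interaction. A count of 0 is thus to be expected in lists this short.

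Of the retinoic acid, thyroid hormone and vitamin D receptors 0 of 6 passed. Rarb, a retinoic acid receptor, had z scores of 1.35, 1.22, 0.988, 0.908 and 0.970 in TF, 1.41, 0.927, 1.53, 1.33 and 1.58 in TS, 1.06, 1.32, 1.16, 1.27 and 1.57 in CF and 1.34, 1.19, 1.70, 1.43 and 1.34 in CS livers. TF held 3 values under 1.0 and TS held 1, while CF and CS held none. TF minus CS was -0.312 (SE 0.125, 95% interval -0.573 to -0.0508, limma adjusted p = 0.395) and the oil effect -0.196 (limma adjusted p = 0.878). Of 6 retinoic acid target genes, 1 rose on tofu, where 0.921% of all genes passed. Dhrs3, a retinal reductase, rose by 0.175, 1.35-fold (SE 0.0380, limma adjusted p = 0.0414).

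Thra, a thyroid hormone receptor, had z scores of 0.388, 0.298, 0.395, 0.516 and 0.373 in TF, 0.403, 0.374, 0.230, 0.371 and 0.312 in TS, 0.434, 0.146, 0.282, 0.310 and 0.295 in CF and 0.392, 0.506, 0.408, 0.433 and 0.338 in CS livers. Its groups overlapped, and it was the 1 receptor with an unadjusted interaction p under 0.05, with an interaction of 0.178 (SE 0.0741, limma adjusted p = 1.0). Thrb, the main form in hepatocytes, had a protein difference of 0.0409 (95% interval -0.0545 to 0.136). Of 6 thyroid hormone target genes, 2 fell on tofu (0.921% of all genes passed) and 0 passed on fish oil (0.302% of all genes). Me1, malic enzyme, fell by 0.512 (SE 0.0799, limma adjusted p = 0.00422), and Thrsp, a nuclear protein of lipogenic tissue, fell by 0.400 (SE 0.0861, limma adjusted p = 0.0390). Both genes are also known to respond to lipogenic signals other than thyroid hormone.

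The steroid receptors gave 0 of 5 passing, and 3 of them, Esr1, Esr2 and Pgr, were near background. Nr3c1, the glucocorticoid receptor, had group means of 1.08 in TF, 1.16 in TS, 1.12 in CF and 1.15 in CS, with a protein difference of -0.0123 (95% interval -0.123 to 0.0983). Of 11 glucocorticoid target genes, 0 passed in either effect, where 0.921% (protein) and 0.302% (oil) of all genes passed. At such shares 0 is the count to expect in a list this short, so it says little about the list. The 3 receptors of the Nr4a group, which are immediate early genes, were all near background. Of 12 immediate early genes 0 passed in either effect, and the same limit applies to that count. Egr1, an immediate early transcription factor, averaged 0.310 ± 0.101 in TF, 0.627 ± 0.309 in TS, 0.385 ± 0.085 in CF and 0.560 ± 0.163 in CS (SD, n = 5 each), with an oil difference of -0.246 (limma adjusted p = 0.577).

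Among 11 further receptors, grouped here as orphan receptors, 0 passed, with protein differences between -0.0304 (Esrrb) and 0.129 (Nr2c2, near background). Nr2c1, for example, had group means of 0.345 in TF, 0.314 in TS, 0.372 in CF and 0.328 in CS. Hnf4a had z scores of 2.45, 2.26, 2.38, 2.39 and 2.46 in TF, 2.39, 2.42, 2.29, 2.48 and 2.35 in TS, 2.21, 2.40, 2.25, 2.45 and 2.38 in CF and 2.15, 2.32, 2.45, 2.45 and 2.58 in CS livers. The lowest and the highest of these were both CS rats, and the protein effect was 0.0230 (95% interval -0.0788 to 0.125). Its 2 dimmer probe sets gave larger differences of 0.189 (limma adjusted p = 0.0862) and 0.119 (adjusted p = 0.233) on tofu, neither past the threshold. Of 7 HNF4 target genes, 0 passed in either effect, which is the count to expect where 0.921% (protein) and 0.302% (oil) of all genes passed.

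The receptors differed widely in how much they varied between rats of the same diet (see the plot of spread against level). The median SD between rats of a group was 0.0984 for the 27 receptors above the array median, against 0.0743 for all such genes, and 0.149 for the 15 near background, against 0.154. Nr1d1 had the largest spread (0.473), then Nr0b2 (0.422), Nr2c2 (0.314) and Nr1d2 (0.313). At the other end, Rara (percentile 14.6), Esrra (19.4) and Nr1h3 (21.9) stood at a low percentile of this SD among all genes.

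**Figure D4:**
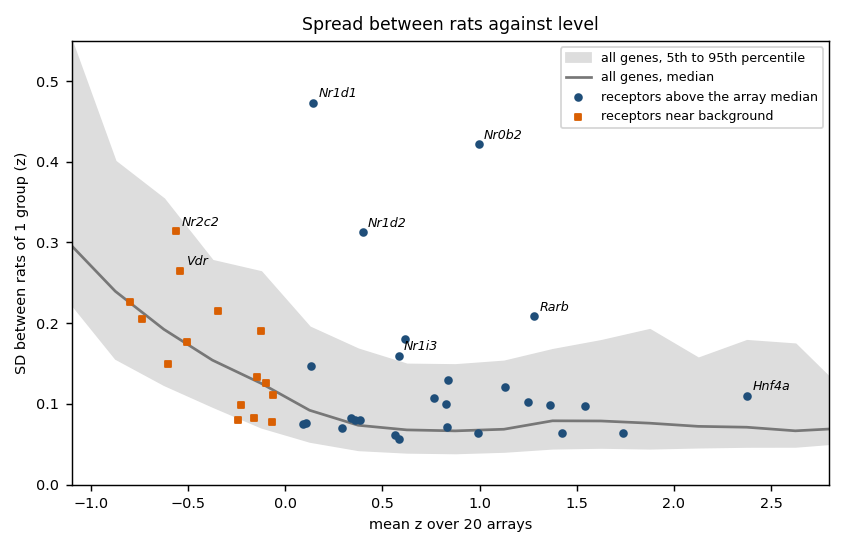
SD between rats of 1 group (y axis, in z) against the mean z over 20 arrays (x axis) for the 42 receptors, with the median (line) and the 5th to 95th percentile (grey band) of all genes at the same level. Above the band lie 6 receptors, Nr1d1, Nr0b2 and Nr1d2 by the widest margin (SDs of 0.473, 0.422 and 0.313), then Rarb (0.209), Esrrg (0.180) and Nr1i3 (0.160).

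The clock receptors Nr1d1 and Nr1d2 (REV-ERB alpha and beta), which repress the clock activator Bmal1 and whose mRNA cycles strongly over the day in liver, rose and sank together from rat to rat. Nr1d1 had z scores of 0.843, -0.354, 0.262, 0.514 and 0.983 in TF, -0.0532, 0.226, -0.395, 0.153 and 0.827 in TS, -0.439, -0.440, 0.0063, 0.318 and 0.726 in CF and -0.587, 0.0589, -0.291, 0.0245 and 0.484 in CS livers. Nr1d2 had 0.759, 0.0778, 0.368, 0.505 and 1.05 in TF, 0.174, 0.367, 0.326, 0.313 and 0.946 in TS, 0.215, -0.0312, 0.321, 0.494 and 0.946 in CF and 0.0263, 0.258, 0.0739, 0.417 and 0.340 in CS livers. Each group held high and low rats for both genes, and the groups overlapped. The protein difference of Nr1d1 was 0.314 (95% interval -0.0979 to 0.727, limma adjusted p = 0.633) and that of Nr1d2 was 0.183 (95% interval -0.0905 to 0.457, limma adjusted p = 0.683), so neither passed and neither interval excludes a change above 1.41-fold. Rora, which activates Bmal1, had a protein difference of 0.0268 (95% interval -0.105 to 0.159), and Rorb was near background. The time of day at which each liver was taken is not given in the sources used here.

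Relations between rats were computed for 7 pairs of a receptor and a partner gene, on deviations from the group means over 20 rats, with a two-sided permutation test within groups. The test treats the rats of a group as exchangeable and takes no account of the rat number. Nr1d1 was highest in the rat numbered 7 in all 4 groups, so rats that share a number may not be independent for it. The permutation p values of its pairs may then be too small, which was not tested. Nr1d2 and Nr1d1 had Pearson's r = 0.902 and Spearman's rho = 0.917 (permutation p = 1e-05 each, the smallest that 100000 permutations can give, adjusted 7e-05), and r was 0.862 without the 2 rats farthest from the median of Nr1d2. Nr1d1 and Bmal1 had r = -0.610 and rho = -0.589 (permutation p = 0.00847 and 0.0127, adjusted 0.0296 and 0.0394), and r was -0.479 without TF-4 and CF-7. Without the 4 arrays with a low 5′ actin value r was -0.612 with an adjusted permutation p of 0.125. Bmal1 varied little, from 0.514 to 0.753 over all rats, and the rat with the highest Bmal1, TF-4, had the lowest Nr1d1 of its group. Thrb and Thrsp had r = 0.501 and rho = 0.564 (permutation p = 0.0288 and 0.0169, adjusted 0.0671 and 0.0394), so only rho passed, and r was 0.377 without TF-4 and CS-1. Its rho did not pass with quantile normalisation (0.459, adjusted permutation p = 0.140), without the low-actin arrays (0.415, adjusted permutation p = 0.334) or with group means kept (0.20, adjusted permutation p = 0.607). The other 4 pairs did not pass, including Nr1d1 with Dbp (r = 0.367, rho = 0.185, permutation p = 0.194 and 0.469, adjusted 0.272 and 0.469) and Nr0b2 with Cyp7a1 (r = 0.382, rho = 0.374, permutation p = 0.130 each, adjusted 0.228 and 0.227). Dbp (mean z -0.0843) and Nr4a1 (-0.126), which was paired with Egr1, were near background, so their pairs say little. Nr1d1 was above its own array's median on 13 of 20 arrays. Of 14 measured clock genes other than the receptors, 0 passed in either diet effect. Over all genes 0.921% (protein) and 0.302% (oil) passed, so 0 is the count to expect in that list.

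**Figure D5:**
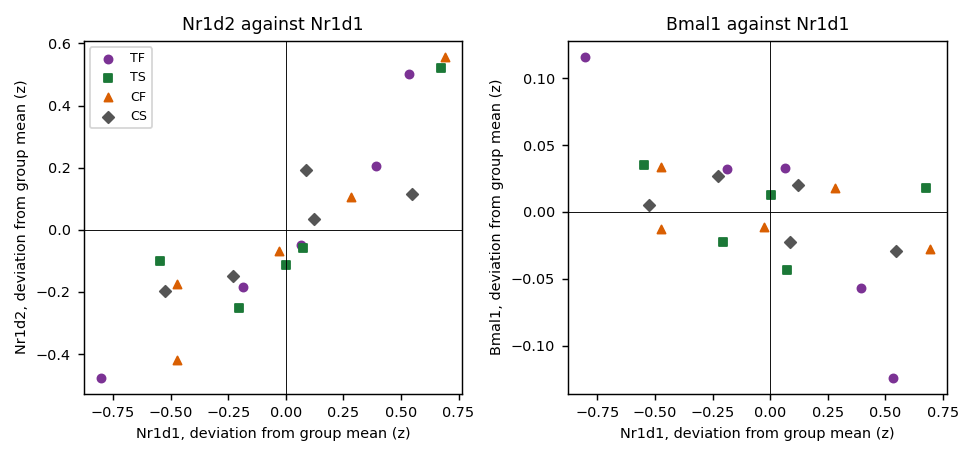
Deviation from the group mean in z of Nr1d2 (left) and Bmal1 (right) on the y axes against that of Nr1d1 on the x axes, 1 point per rat (n = 20), with symbols for the TF, TS, CF and CS groups. Nr1d2 climbs with Nr1d1 in all groups (r = 0.902), and Bmal1 declines with it over a narrow range (r = -0.610).

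The tissue matched its label, with 9 measured hepatocyte markers averaging 2.87 to 3.03 in TF, 2.90 to 3.04 in TS, 2.82 to 2.95 in CF and 2.83 to 2.94 in CS livers, and 0 of them passed in either effect. Lymphocyte markers stayed below the array median, with 0 of 4 above it, and 0 of 10 stellate cell and 0 of 5 cholangiocyte markers passed. Over all genes 0.921% passed in the protein effect and 0.302% in the oil effect, so 0 is the count to expect in lists this short. On tofu 8 of 8 endothelial and 7 of 7 Kupffer cell markers had a positive difference without passing the test, and endothelial markers averaged 1.03 to 1.17 in TF, 1.08 to 1.17 in TS, 0.996 to 1.06 in CF and 0.972 to 1.09 in CS livers. Of 3 erythroid markers 1 rose on tofu, where 0.921% of all genes passed. Slc4a1, the red cell anion exchanger, rose by 0.250 (SE 0.0523, limma adjusted p = 0.0327). On fish oil 0 of 7 Kupffer cell markers (median -0.0707) and 1 of 10 stellate cell markers (median -0.0834) had a positive difference, and none of them passed either. The part of these shifts in the receptor values was not tested, and fewer cells of a type and less mRNA per cell cannot be told apart in whole liver. The array medians lay between -0.102 and 0.022. Arrays of TF-3, TS-1, CF-1 and CS-1 had a low 5′ actin value, and without them Nr1i3 still passed in the protein effect and in TF against CS.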

How the data were processed

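Liver RNA of 20 rats was hybridised to Affymetrix Rat Genome arrays, 1 array per rat, 5 rats per diet. The deposited values are a score per probe set and rat: the authors had raw signals normalised by the SuperNORM service, which standardises each array to its own lognormal signal distribution, so each score is a logarithmic z value and carries no background measure. The study tested single Perfect Match cells and estimated differences by trimmed means over them, while how those cells were combined into the deposited score, and the software version, are not given in the sources used here. Replicates are separate rats, and their number limits the precision.

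The table held 31099 probe sets. After removal of 57 controls 31042 remained, and 31039 of them had 3 or more values in each group and entered the test. Array annotation gave 1 symbol for 20825 of them (20757 updated by gene identifier, 68 not), several for 436 and none for 9778, and the brightest probe set of each symbol gave 14217 genes. All tested probe sets were modelled together in limma 3.58.1 (R 4.3.3) with 1 mean per group, moderated variance and Benjamini-Hochberg adjustment over all probe sets, at a threshold of 0.05. Folds assume that 0.2 in z is 1.41-fold and are given only where all group means exceed 0.022. The receptors, gene lists, pairs and alternatives were chosen with earlier results of these data known. All measured receptors are named, and every rat's value is given for receptors that passed a test, the 6 others above the array median with the lowest F test p, the 3 with the highest level and, chosen after their values were seen, Nr1d1 and Nr1d2. Of each surrounding list, up to 2 passing genes with the largest differences are given in full, with Bmal1, Dbp, Cyp7a1 and Egr1. The alternatives were quantile normalisation, scaling of each array, a filter for bright probe sets, a block for rat number, unmoderated variance, a robust variance trend, weighting of arrays, averaging of a gene's probe sets, fits of 2 groups, and leaving out each rat, the 4 arrays with a low 5′ actin value or the 3 arrays least correlated with the others. In simulated data of 31039 probe sets with independent normal noise, 50 probe sets were given a protein effect of each size. With the same model, effects of 0.2, 0.4 and 0.8 were recovered in 34%, 78% and 94% of their 50 probe sets. A planned description of DNA-binding domains and a planned pair of Nr1i3 with Cyp2b1 were not run.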

Additional observations from a re-analysis of the deposited data

Results flagged for a closer look

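Of 120 groups of 5 rats or arrays examined, 9 (7.5%) held a value far from the other 4, where chance gives about 1 in 20. Nr2f6 was low in TF-5 (1.36), where the other TF rats had 1.49 to 1.5. Nr2f2 (COUP-TFII) was low in TS-5 (1.25) and in CS-6 (1.14) and high in CF-7 (1.42), where the other rats had 1.39 to 1.44 in TS, 1.29 to 1.33 in CF and 1.33 to 1.39 in CS. Rxrg was low in CS-1 (0.861), where the others had 0.952 to 0.984. Nr1d2 was high in TS-7 (0.946), where the others had 0.174 to 0.367. Among array measures, TS-7 had a low mean correlation with the other arrays (0.943), and the 5′ actin value was low in CF-1 (1.42) and CS-1 (1.39).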

How the results depend on the processing

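Of all results run, the protein effect of Nr1i3 stayed past the threshold in 9 of 10 other settings and in all 20 fits that left out 1 rat (limma adjusted p 0.00322 to 0.0143, differences 0.379 to 0.447). It missed with the rat number as a replicate block (0.392, limma adjusted p = 0.0638), where 0 receptors passed. Over all probe sets, 1 of 22 same-number pairs of rats had a correlation over 0.1 (range -0.0982 to 0.127, median 0.0371). That pair was CF-1 with CS-1, both with a low 5′ actin value. The arrays with a low 5′ actin value (TF-3, TS-1, CF-1 and CS-1) were those of the lowest-numbered rat of each group, so rat number and this measure are linked. The part of this link in the fit with the block was not tested. The median for different numbers in different groups was -0.00804. A correlation over all probe sets cannot show whether the rat number matters for a single gene. With that block, the standard error of the protein effect of Nr1d1 was 0.0751 for a difference of 0.370 (limma adjusted p = 0.0722), against 0.197 for a difference of 0.314 without it (limma adjusted p = 0.633). TF against CS stayed past the threshold for Nr1i3 in all 11 other settings (highest limma adjusted p 0.0418) and all 20 fits with 1 rat left out. In TS against CS, 1 receptor (Nr1i3) passed with bright probe sets only, with a variance trend and with the mean of all probe sets, and 0 to 1 passed with each rat left out (1 without TS-5, limma adjusted p = 0.0296, or CF-6, 0.0251). The F test selection took 3 receptors with the block and 2 without the low-actin arrays, and 1 to 2 with 1 rat left out (2 without TF-3). The numbers passing in the oil effect and the interaction were 0 in every setting run. Small protein differences changed sign: Thra with scaling (-0.00161), with the mean of all probe sets (-0.00627) and with 1 rat left out (-0.00718 to 0.0289); Rxrg with the mean of all probe sets (0.0438) and with 1 rat left out (-0.0220 to 0.00977); Nr1h3 with quantile normalisation (-0.00098); and Hnf4a with quantile normalisation (-0.0110), without the low-actin arrays (-0.0314) and with 1 rat left out (-0.00723 to 0.0467). Of the pairs over rats, Nr1d1 and Bmal1 no longer passed without the low-actin arrays (r = -0.612, permutation adjusted p = 0.125) or with group means kept (r = -0.411, permutation adjusted p = 0.136), and the rho of Thrb and Thrsp passed in none of the 3 other settings. The causes were not tested. Dim probe sets limit what can be said of the 15 receptors near background.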

Other observations

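The rat numbered 7 had the highest Nr1d1 value in each of the 4 groups (0.983 in TF, 0.827 in TS, 0.726 in CF and 0.484 in CS), a pattern noticed after the values were seen. Among all 14217 genes, 72 (0.506%) had their highest value in that rat in all 4 groups. In at least 3 of the 4 groups, 4 of 42 receptors (9.52%; Nr1d1, Nr1d2, Esr1 and Rxrb) and 2 of 14 clock genes (14.3%; Dbp and Per2) were highest in rat 7, against 4.70% of all genes. In at least 3 groups, 1 receptor (2.38%; Ppard) and 3 clock genes (21.4%; Bmal1, Cry1 and Nfil3) were lowest in rat 7, against 1.88% of all genes. Per2 was lowest in rat 7 in its remaining group. What a rat number stands for is not given in the sources used here, and any part of it in these values was not tested.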
